A study of Mus musculus with 8 samples.

Results

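Of the 5551 consensus sites of KLF1-ER and KLF1-E339K-ER, 818 (14.7%) are called here mutant sites with weak wild type binding. They were selected on measured values, namely a mean mutant concentration of at least 4 and a mean wild type concentration of at least 2 and under 4, where a concentration is the authors' log2 mean of normalized reads at a site. These 818 sites were set beside 3 other classes cut from the same pair of values. Mutant-only sites (2364) had the same minimum for the mutant and a wild type value under 2. Both-bound sites (883) had at least 4 for both proteins. Partially bound wild type sites (722) had a wild type value of at least 4 and a mutant value of at least 2 and under 4. The remaining sites had no place in these classes.

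KLF1-E339K-ER is KLF1 with a lysine in place of a glutamate in the second zinc finger, fused to a modified estrogen receptor domain that enters the nucleus on 4-hydroxytamoxifen (4-OHT). It was expressed from a retroviral vector with a GFP marker in K1 cells, a line from Klf1-deficient mouse fetal liver, so the mutant protein was not measured beside endogenous KLF1. The ChIP library came from 1 clone of K1-E339K-ER cells given 200 nM 4-OHT for 3 h, precipitated with an antibody to ERα and pooled from 3 replicates before sequencing, with 1 input library. The wild type KLF1-ER libraries behind the wild type concentrations come from earlier work of the authors and enter only through those means. Nascent RNA labeled with 4-thiouridine (4sU, 500 µM for 30 min by the labels) was taken from 3 K1 cultures, 1 of them labelled as ethanol treated and the others given 200 nM 4-OHT, and from 3 K1-E339K-ER clones given 200 nM 4-OHT. It is used here only as a list of genes with a mean level, from 2 gene tables, one for each protein, of 11364 rows each. The tables hold the same mean levels under partly different symbols, and which libraries the mean covers, wild type KLF1-ER ones included, is not given in the sources used here. The concentrations and RNA means are the authors' means without per-library values, so they carry no SD and the depth behind them is unknown.

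KLF1 is an erythroid transcription factor that binds G-rich sequences known on the other strand as CACCC boxes, in promoters and enhancers of globin, heme, membrane and cell cycle genes. Its zinc fingers read the G-rich strand triplet by triplet, and the middle finger faces the central triplet. Position 5 of a 9-base site is the middle of that triplet, and a CACCC box has a pyrimidine there on the G-rich strand. Erythroid enhancers often carry GATA sites near KLF1 sites, bound by GATA1, the master factor of the lineage.

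Each site was searched on both strands within 50 bp of its midpoint for a purine motif (NGGGAGGGG, NGGGAGTGG, NGGGGGGGG or NGGGGGTGG) and for a pyrimidine motif (NGGGCGGGG, NGGGCGTGG, NGGGTGGGG or NGGGTGTGG). The 2 sets of words differ only at base 5, counted from 1 at the 5′ end of the G-rich strand, and 2 matches can overlap within a run of G. Each overlapping match was counted, so 1 long run of G gives several purine matches. The purine words spell out the motif that the paper derived from KLF1-E339K-ER peaks, and the pyrimidine words the one from KLF1-ER peaks. The classes were cut by occupancy of the same 2 proteins, so their differences in these words were partly given in advance. The sequences below are mm9 sequence from the NCBIM37 assembly, written 5′ to 3′ on the strand of the match, with the matched bases in capitals. The 5 sites with a purine motif, no pyrimidine motif and the highest mutant concentration show the 2 purine cores with adenine or guanine at base 5.
Cd247, chr1:167775119-167775147, minus strand: ccgggagcacTGGGGGGGGggggggcagc
Gse1, chr8:122860126-122860154, plus strand: ggtgaggtggGGGGAGGGGtggagacaaa
Hdac5, chr11:102080402-102080430, plus strand: gccagtcaagGGGGAGGGGggcaagggag
Zcchc6, chr13:59936738-59936766, plus strand: ggaagcacagAGGGAGGGGagcacataca
Cox6b2, chr7:4698799-4698827, plus strand: gccaggcctcAGGGGGTGGaattgacttg

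Of the sites with both motifs and the highest mutant concentration, 4 are shown from the first to the last base of the closest pair of matches, with 5 bases on each side. In the last 3 of them the purine and the pyrimidine match overlap, so that the capitals run as 1 block.
Rab5b, chr10:128136955-128136983, plus strand: gaggcTGGGTGGGGcTGGGAGGGGgtgac
Creb3l1, chr2:91864518-91864538, plus strand: gagccCGGGGGTGGGGccgat
Helz, chr11:107409006-107409026, plus strand: agggaCGGGGGTGGGGggaag
E130018N17Rik, chr2:167980057-167980077, minus strand: ctggcTGGGGGTGGGGaaggg

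The 3 sites with a pyrimidine motif and no purine motif and the highest mutant concentration had thymine at base 5 of the match nearest the midpoint, and 2 of them are shown.
Fads2, chr19:10176246-10176274, minus strand: gggagccagaGGGGTGGGGggaggaggca
Atxn2, chr5:122162646-122162674, plus strand: gcctctttgcCGGGTGGGGagtcgggagg

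In the 3 sites with neither motif and the highest mutant concentration, the capitals mark the 9 bases nearest the midpoint with the fewest mismatches to the 2 motifs, base 5 being free.
Set, chr2:29917421-29917449, minus strand: gcgatggagaAGGGGGCGGctcctgcggg
Creb3l1, chr2:91847481-91847509, plus strand: ggaccctcttTGGGGGTGCccgaatgaac
Prr12, chr7:52308560-52308588, plus strand: acgcgcgctcCGGAGGGGGcgtcccggac

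The concentrations that chose the 818 sites are given as a description. The mutant concentration ran from 4 to 8.26 with a median of 5.37 (quartiles 4.9 and 6.07), and the wild type concentration from 2.08 to 3.95 with a median of 2.91 (quartiles 2.37 and 3.37). The rule itself makes the mutant value the higher one at every site. Mutant minus wild type had a median of 2.53 and ran from 0.18 to 5.70 on the log2 scale. It was 2 or more at 599 sites (73.2%) and under 1 at 39 sites (4.77%). The median mutant value was 5.48 at both-bound and 5.12 at mutant-only sites, which were chosen with the same mutant minimum of 4.

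The wild type scale was coarse at this level. The 818 sites took only 25 distinct wild type values, and on the linear scale these lay 7 to 31 whole steps of 0.468 above the lowest value in the table, to within 0.174 of a step. Linear wild type values of these sites ran from 4.23 to 15.5 with a median of 7.52 normalized reads, beside a median linear mutant value of 41.4. The lowest wild type value, a concentration of -0.09, was shared by 1424 sites of the table, none of them among the 818. What 1 step stands for in reads is not given in the sources used here. Whether single wild type values of this size stand above the reads expected without binding was not tested.

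The limits of the rule fall between neighbouring values. At the lower wild type limit, 81 sites had the value 2.08 just inside, among them sites at Cox6b2, Helz and E130018N17Rik with mutant concentrations of 7.78, 7.24 and 7.21. The next value outside was 1.91, shared by 91 sites, among them sites at Setd7, Zfp541 and Ehmt2 with mutant concentrations of 7.96, 7.92 and 7.62. At the upper wild type limit, 19 sites lay at 3.95, among them sites at Sptb, Samd8 and Tgm2 with mutant concentrations of 6.79, 6.48 and 6.20, and 13 sites lay just outside at 4, among them sites at Hnrpll and Crebrf with 6.85 and 6.81. At the mutant limit, sites at Suclg2 and Hspa4l had a mutant value of 4 and one at Rap1a 4.02, with wild type values of 3.72, 3.43 and 2.91. Just outside, sites at Arid1b, Ttc7b and Med4 had mutant values of 3.98, 3.90 and 3.75. At each wild type limit the named sites are those with the highest mutant concentration on their side.

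**Figure D1:**
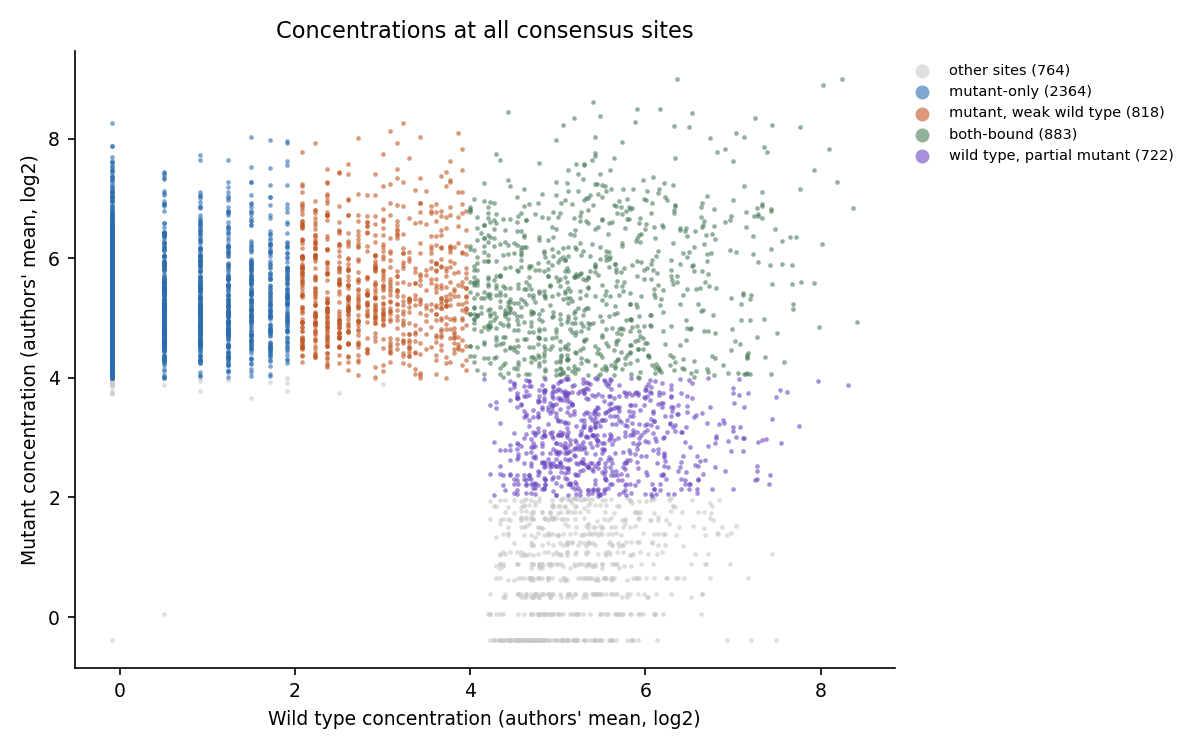
Wild type (x axis) and mutant (y axis) concentration of each of the 5551 consensus sites, both as the authors' log2 means, with 1 point per site coloured by class. The 818 mutant sites with weak wild type binding lie in the columns of discrete wild type values between 2.08 and 3.95, with mutant values from 4 to 8.26.

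The purine motif was the more frequent of the 2 motifs in these sites. It was present at 341 of 818 sites (41.7%, 95% Wilson interval 38.4% to 45.1%), against 35.5% of all 5551 sites. The pyrimidine motif was present at 217 sites (26.5%, 23.6% to 29.7%), against 35.3% of all sites. Intervals here and below cover counting error over the listed sites only. Both motifs stood at 113 sites (13.8%, against 13.0% of all sites), a purine motif alone at 228 and a pyrimidine motif alone at 104. Neither motif was found at 373 sites (45.6%, against 42.2% of all sites).

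The weakly wild type bound sites lay between mutant-only and both-bound sites in both motifs. Since the words come from peaks of these same proteins, the comparisons describe the classes and are no independent test of either motif. Each share was compared by a two-sided Fisher's exact test, with p adjusted by the Benjamini-Hochberg method over 42 tests, and since sites are not replicates of a condition these p describe the listed sites. The purine motif was less frequent than at mutant-only sites, where 47.8% had it (odds ratio 0.779, 95% interval 0.664 to 0.915, adjusted p = 0.00594). It was more frequent than at both-bound sites, with 29.4% (odds ratio 1.71, 1.40 to 2.09, adjusted p = 9.75e-07), and than at partially bound wild type sites, with 18% (odds ratio 3.26, 2.57 to 4.12, adjusted p = 3.37e-23). The order of the pyrimidine motif was the opposite. It was more frequent than at mutant-only sites, with 21.0% (odds ratio 1.36, 1.13 to 1.63, adjusted p = 0.00328), and less frequent than at both-bound sites, with 38.1% (odds ratio 0.588, 0.478 to 0.722, adjusted p = 2.24e-06), and partially bound wild type sites, with 59.3% (odds ratio 0.248, 0.2001 to 0.307, adjusted p = 9.94e-38).

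Several of these comparisons no longer passed 0.05 in other settings, with the same direction. For the purine motif against mutant-only sites the odds ratio was nearer to 1 when the search was widened to 100 bp (0.856) or to the whole site (0.908) and at promoter sites alone (0.827), and at mutant concentrations from 5 to 6, with fewer sites, it was 0.747. Against both-bound sites it was 1.11 with the whole site searched (67.6% against 65.2%, adjusted p = 0.376). For the pyrimidine motif against mutant-only sites it was nearer to 1 with a 25 bp search (1.07), away from promoters (1.18) and with a minimum mutant concentration of 5 (1.24), while it stayed near the reported size at mutant concentrations from 5 to 6 (1.35) and in a wild type band from 2.5 to 3.5 (1.32). Against both-bound sites it was 0.722 at mutant concentrations from 5 to 6 (27.0% against 33.9%, adjusted p = 0.184).

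Among sites with exactly 1 of the motifs, 228 of 332 (68.7%) had the purine one, against 50.3% over all such consensus sites. This share was 82.0% at mutant-only sites (odds ratio 0.481, 0.362 to 0.638, adjusted p = 2.64e-06), 38.4% at both-bound sites (odds ratio 3.51, 2.55 to 4.85, adjusted p = 7.16e-14) and 12.6% at partially bound wild type sites (odds ratio 15.3, 10.5 to 22.2, adjusted p = 1.20e-55). All 3 differences kept their direction and stayed past 0.05 under every alternative tried for them. The share with both motifs was within 11.1% to 15.2% in the 3 other classes, and none of its 3 comparisons passed the threshold with the 50 bp search (odds ratios 1.03, 0.896 and 1.29 with intervals of 0.816 to 1.29, 0.683 to 1.17 and 0.947 to 1.75).

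**Figure D2:**
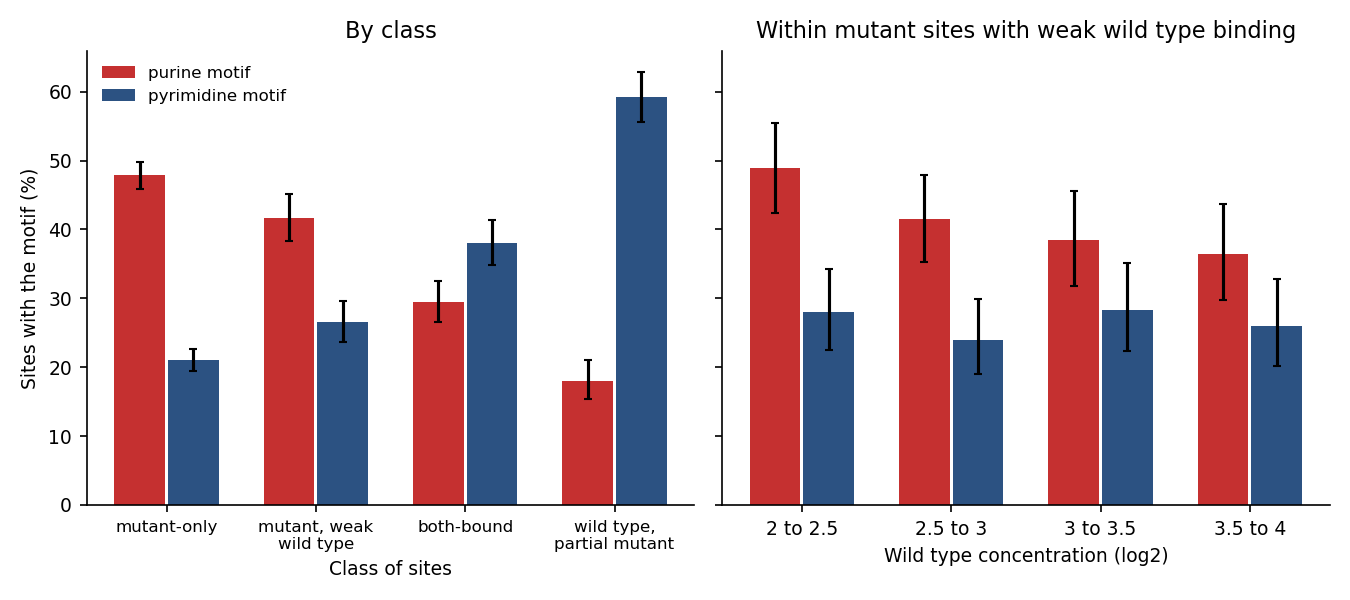
Percentage of sites (y axis) with a purine (red) or pyrimidine (blue) motif within 50 bp of the midpoint, by class (left) and, within the 818 mutant sites with weak wild type binding, by wild type concentration (right), with bars for shares and whiskers for 95% Wilson intervals. The purine share goes from 47.8% at mutant-only sites to 18% at partially bound wild type sites while the pyrimidine share goes from 21.0% to 59.3%, and inside the class the purine share goes from 48.9% to 36.5%.

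Within the 818 sites the purine share was lower in each higher band of wild type concentration. It was 48.9% of 221 sites with a wild type value from 2 to 2.5 (interval 42.4% to 55.4%), 41.5% of 229 sites from 2.5 to 3, 38.5% of 187 sites from 3 to 3.5 and 36.5% of 181 sites from 3.5 to 4 (29.8% to 43.7%). The intervals of neighbouring bands overlap, and the trend was not tested. The pyrimidine share showed no such order, with 28.1%, 24%, 28.3% and 26.0% over the same bands. By mutant concentration it went from 33.2% of 250 sites with a mutant value from 4 to 5, through 27.0% of 344 and 18.9% of 180, to 15.9% of the 44 sites at 7 or more. The purine share over the same mutant bands was 45.2%, 42.2%, 35.0% and 45.5%. The share with both motifs was 17.2% in the lowest of these mutant bands and 6.67% and 11.4% in the upper 2, and the share with neither was 38.8% in the lowest and 52.8% (95 sites) and 22 of 44 sites in the upper 2.

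The base within the motif also placed these sites between the neighbouring classes. At the purine match nearest the midpoint, base 5 was guanine at 179 of 341 sites (52.5%, against 54.5% over all consensus sites with a purine match) and adenine at the others. A match within a run of G has guanine at base 5 by itself, and the share without such matches was not taken. Guanine was less frequent than at mutant-only sites, with 63.9% (odds ratio 0.624, 0.488 to 0.796, adjusted p = 0.000532), and more frequent than at both-bound sites, with 37.3% (odds ratio 1.86, 1.34 to 2.58, adjusted p = 0.000712), and partially bound wild type sites, with 33.1% (odds ratio 2.24, 1.46 to 3.41, adjusted p = 0.000532). Inside the class guanine stood at 65 of 108 purine sites (60.2%) in the lowest wild type band and at 49.5%, 48.6% and 48.5% in the next 3. At promoter sites alone the differences from mutant-only and from partially bound wild type sites did not pass (adjusted p = 0.217 and 0.133), and with a minimum of 5 the difference from both-bound sites did not (adjusted p = 0.0548).

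At the pyrimidine match nearest the midpoint, base 5 was thymine at 130 of 217 sites (59.9%, against 49.4% over all consensus sites with such a match) and cytosine at the others. Of the 217 sites, 113 also held a purine match, and at 73 the closest pair of matches overlapped. In the overlapping form shown above for Creb3l1, Helz and E130018N17Rik the overlap itself gives thymine. The share without such sites was not taken. Thymine was more frequent than at both-bound sites, with 49.4% (odds ratio 1.53, 1.08 to 2.16, adjusted p = 0.0367), and partially bound wild type sites, with 36.4% (odds ratio 2.61, 1.86 to 3.64, adjusted p = 1.18e-07). The value of 67.8% at mutant-only sites was not told apart from it (odds ratio 0.709, 0.510 to 0.987, adjusted p = 0.0895). The difference from both-bound sites no longer passed in 5 other settings. Its odds ratio was nearer to 1 at sites over 1000 bp from a TSS (1.06, with thymine at 68.1% against 66.9%) and with a minimum mutant concentration of 5 (1.33), and about as large as reported with a 25 bp search (1.61), without sites that had a neighbour within 2000 bp (1.55) and in a wild type band from 2.5 to 3.5 (1.49). Base 7 of the purine match, thymine or guanine in the motif, was thymine at 122 of 341 sites (35.8%, against 39.8% over all consensus sites with a purine match), and none of its 3 comparisons passed (odds ratios 0.885, 0.906 and 0.692, with the widest interval from 0.459 to 1.04).

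Taking the nearest match of either motif, base 5 in the 445 sites with a match was guanine in 33.3%, adenine in 32.4%, thymine in 20.7% and cytosine in 13.7%. At mutant-only sites guanine was ahead with 46% and cytosine last with 9.47%, at both-bound sites cytosine stood at 31.0% and guanine at 13.0%, and at partially bound wild type sites cytosine stood at 53.6% and guanine at 3.97%. The most frequent whole word at the nearest purine match of the weakly wild type bound sites was GGGGAGGGG, with 69 of 341 sites (20.2%), followed by AGGGAGGGG and TGGGGGTGG with 33 sites each. A run of 9 guanines was the nearest match at 29 sites (8.50%), against 13.7% of purine sites in the mutant-only class. At the nearest pyrimidine match GGGGTGGGG led with 67 of 217 sites (30.9%), before GGGGCGGGG with 51 (23.5%). The free base 1 of the nearest purine match was guanine at 40.2%, thymine at 25.8%, adenine at 19.1% and cytosine at 15.0% of sites.

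Both motifs were concentrated at the middle of the sites. The purine motif had 9.50 matches per kb within 50 bp of the midpoint and 2.03 per kb in the windows 200 to 300 bp away on both sides. The pyrimidine motif had 3.35 against 1.40 per kb. A single flanking window of the same length held a purine match at 10.8% of the 818 sites and a pyrimidine match at 11%, which is the level these words reach beside the sites. The nearest purine match lay within 25 bp of the midpoint at 264 of 341 sites (77.4%), with a median distance of 14 bp, and the nearest pyrimidine match at 143 of 217 (65.9%), with a median of 18 bp. At mutant-only sites the density of the purine motif was 11.7 per kb and at both-bound sites 4.97 per kb, with 1.77 and 1.92 per kb in their flanks. Of the 341 purine sites, 81 (23.8%) held 3 or more purine matches, beside 27.9% of such mutant-only, 14.2% of both-bound and 5.38% of partially bound wild type sites, and the largest number was 18, at a site in Zfpm1. Overlapping matches within a run of G each count here. The numbers and densities of purine matches thus also depend on the length of such runs, which was not taken apart.

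**Figure D3:**
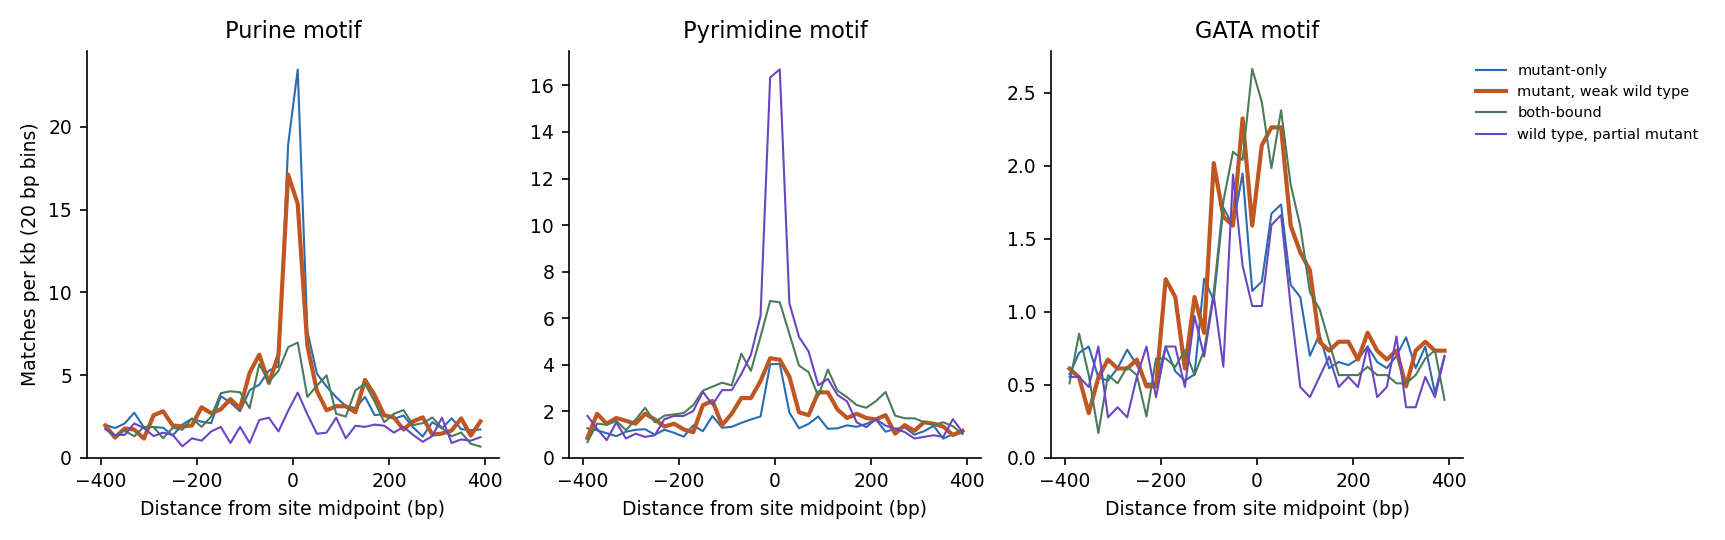
Matches of the purine, pyrimidine and GATA motifs per kb (y axis, own scale in each panel) in 20 bp bins against the distance from the site midpoint in bp (x axis), with 1 line per class and the mutant sites with weak wild type binding in bold orange. Their purine curve reaches 17.1 per kb at the midpoint, under the 23.5 per kb of mutant-only sites, their pyrimidine curve reaches 4.28 per kb, and their GATA curve is a broad rise up to 2.32 per kb.

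Where both motifs were present, the matches often shared bases. The closest purine and pyrimidine matches overlapped at 73 of 113 sites (64.6%) and lay on the same strand at 97 (85.8%). Overlap was found at 79.0% of such mutant-only sites and 46.3% of such both-bound sites. The Creb3l1, Helz and E130018N17Rik sequences above have this form, a purine word ending in GTGG that runs on into GGGGTGGGG.

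The 373 sites with neither motif were G-rich as well. A 9-base word with 1 mismatch, base 5 being free, was found within 50 bp of the midpoint at 331 of them (88.7%), while 1 flanking window of the same sites held a word with at most 1 mismatch at 63.8%. The sites with neither motif in the 3 other classes were alike in this, with 85.5% to 92.6% at the middle and 56.6% to 62.9% in the flank. The mismatch was at base 8 in 91 of the 331 words (27.5%), at base 9 in 58 (17.5%), at base 4 in 48 and at base 3 in only 24. Base 5 of these words was a purine at 224 sites (67.7%), as against 71.7% in the mutant-only, 52.5% in the both-bound and 34.1% in the partially bound wild type class. The 6-base word most in excess over the flank was GGGAGG, present at 59.2% of the 373 midpoint windows and 22.8% of the flanking windows. Over all 818 sites it was also the leading word, with 63.8% against 23.7%.

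The GATA motif (AGATAA or TGATAA, either strand) stood within 50 bp of the midpoint at 137 of the 818 sites (16.7%, 14.3% to 19.5%), against 14.5% of all consensus sites. It was more frequent than at partially bound wild type sites, with 11.4% (odds ratio 1.57, 1.17 to 2.11, adjusted p = 0.00594). The differences from mutant-only sites, with 13.6% (odds ratio 1.28, 1.03 to 1.59, adjusted p = 0.0621), and from both-bound sites, with 19.1% (odds ratio 0.850, 0.663 to 1.09, adjusted p = 0.310), did not pass. Within promoters alone, away from them alone, and in a wild type band from 2.5 to 3.5, the difference from partially bound wild type sites did not pass either. Away from promoters it was present at 122 of 467 sites (26.1%) and at promoters at 15 of 351 (4.27%). Away from promoters the mutant-only value was 18.4% and the difference passed (odds ratio 1.57, adjusted p = 0.00206), while at promoters it was 4.56% with an odds ratio of 0.935. The both-bound value was 28.1% away from promoters (odds ratio 0.903) and 8.94% at promoters, where the difference passed (odds ratio 0.455, adjusted p = 0.0354), as it did in the wild type band from 2.5 to 3.5 (odds ratio 0.671, adjusted p = 0.0456). The GATA density was 1.94 per kb at the middle and 0.635 per kb in the flanks of the weakly wild type bound sites.

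Other motifs of promoters and erythroid enhancers did not set these sites apart. CCAAT, the NF-Y motif, was found at 72 sites (8.80%), CCGGAAG, an ETS motif, at 13 sites (1.59%), and CAGNTG, an E-box that TAL1 can bind, at 161 sites (19.7%). In the other 3 classes the shares were 7.91% to 8.38%, 1.52% to 2.91% and 20.3% to 21.6%, and no comparison passed the threshold. The odds ratios lay between 0.539 (interval 0.268 to 1.08) for the ETS motif against partially bound wild type sites and 1.12 (0.846 to 1.49) for the NF-Y motif against mutant-only sites. The NF-Y and E-box words were no denser at the middle than in the flanks, with 0.944 against 1.20 and 2.26 against 2.37 per kb.

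Promoters, here within 1000 bp of the closest TSS, held 351 of the 818 sites (42.9%, 39.6% to 46.3%, against 39.5% of all consensus sites). This was more than the 34.3% of mutant-only sites (odds ratio 1.44, 1.22 to 1.69, adjusted p = 5.39e-05) and less than the 53.0% of partially bound wild type sites (odds ratio 0.665, 0.544 to 0.814, adjusted p = 0.000264). The 46.9% of both-bound sites was not told apart from it (odds ratio 0.851, 0.703 to 1.03, adjusted p = 0.174). With a minimum mutant concentration of 5 the share was 41.5% against 36.6% of mutant-only sites (adjusted p = 0.0935). The direction was the same, with fewer sites, and the difference did not pass. Of the 351 promoter sites 191 (54.4%) had their midpoint upstream of the TSS and 160 downstream. The upstream part was 38.9% of promoter sites in the mutant-only class, 60.9% in the both-bound class and 68.1% in the partially bound wild type class, and this difference was not tested.

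A CpG-rich window, with over 50% GC and an observed over expected CpG ratio above 0.6 within 150 bp of the midpoint, was found at 287 of the 818 sites (35.1%, 31.9% to 38.4%, against 30.3% of all consensus sites). It was more frequent than at mutant-only sites, with 22.8% (odds ratio 1.83, 1.54 to 2.18, adjusted p = 1.35e-10), less frequent than at partially bound wild type sites, with 45.8% (odds ratio 0.638, 0.520 to 0.784, adjusted p = 6.71e-05), and not told apart from both-bound sites, with 37.5% (odds ratio 0.901, 0.739 to 1.10, adjusted p = 0.454). It was present at 67.5% of the promoter sites and 10.7% of the others, and the difference from mutant-only sites stayed past 0.05 within both. The difference from partially bound wild type sites passed in neither (adjusted p = 0.335 and 0.0629). The median GC content of the same window was 61.5%, against 59.5% in the mutant-only and 62.8% in the both-bound class.

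By GENCODE M1 annotation 369 midpoints (45.1%) lay in introns, 291 (35.6%) between genes, 109 (13.3%) in UTRs, 23 (2.81%) in coding exons and 26 (3.18%) in other exons. Over all consensus sites these shares were 46.8%, 36.6%, 10.9%, 3.42% and 2.31%. The width of the 818 sites ran from 303 to 950 bp with a median of 331 bp, near that of mutant-only sites (326 bp) and under that of both-bound sites (397 bp). Another consensus site lay within 2000 bp of 258 sites (31.5%), as at 33.1% of both-bound sites, 23.2% of mutant-only sites and 21.3% of partially bound wild type sites. The nearest such neighbour was a mutant-only site in 92 cases, a both-bound site in 71, another site of the class in 64 and a partially bound wild type site in 20.

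**Figure D4:**
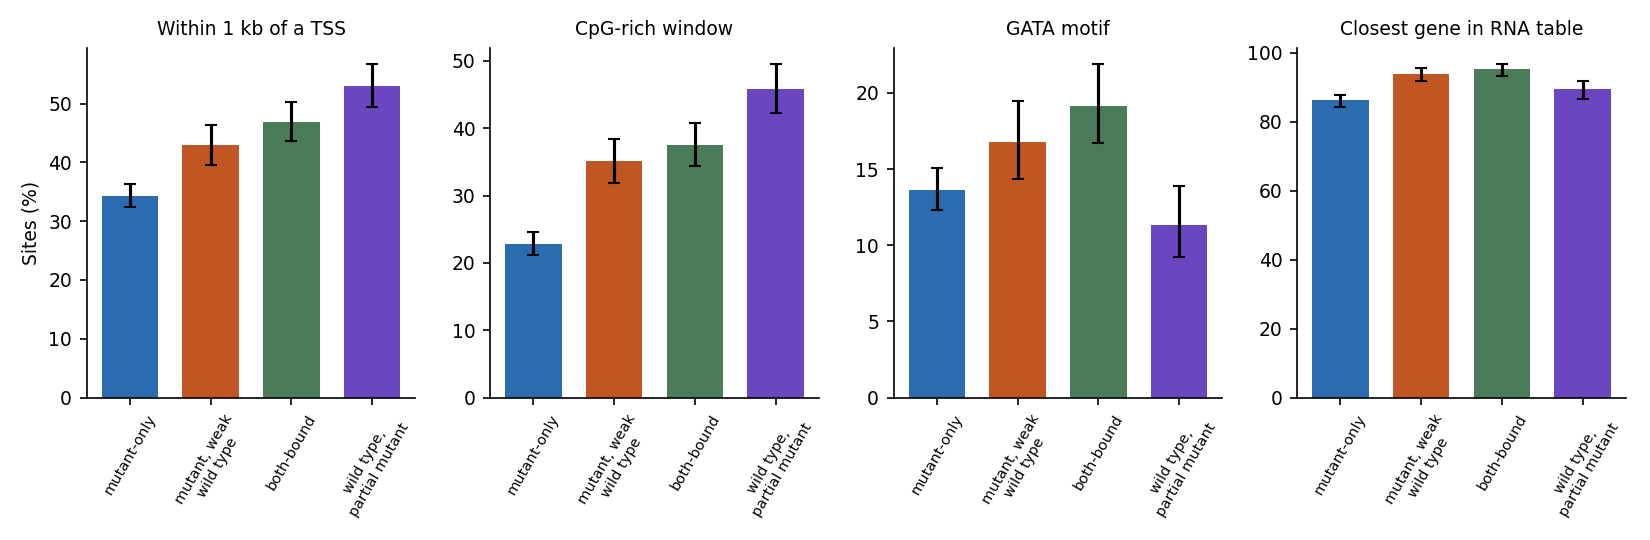
Percentage of sites (y axis, own scale in each panel) within 1 kb of a TSS, with a CpG-rich window, with a GATA motif, and, for sites within 10 kb of a TSS, with the closest gene in the nascent RNA tables, with 1 bar per class and 95% Wilson intervals as whiskers. Mutant sites with weak wild type binding stand at 42.9%, 35.1%, 16.7% and 93.9%, nearer to the both-bound than to the mutant-only bars in the promoter, CpG and gene panels.

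The genes beside these sites were mostly ones with a listed nascent RNA level. Of 575 sites with a TSS within 10 kb, 540 (93.9%, 91.7% to 95.6%) had that gene in either of the 4sU-RNA tables, against 89.5% over all consensus sites near a gene. The share was 86.1% at mutant-only sites (odds ratio 2.49, 1.72 to 3.61, adjusted p = 1.46e-06), 89.4% at partially bound wild type sites (odds ratio 1.83, 1.18 to 2.83, adjusted p = 0.0141) and 95.2% at both-bound sites (odds ratio 0.781, 0.477 to 1.28, adjusted p = 0.496). The difference from partially bound wild type sites no longer passed in 3 other settings, with an odds ratio of 1.39 without sites that had a neighbour within 2000 bp (91.5% against 88.5%, adjusted p = 0.297), 1.37 away from promoters and 1.76 in a wild type band from 2.5 to 3.5. The mean nascent level of the 491 listed genes near the sites of the class had a median of 6.20 on the log2 CPM scale (quartiles 4.51 and 7.36), beside 6.30 in the both-bound, 6.14 in the mutant-only and 5.82 in the partially bound wild type class. These RNA levels are means over libraries and say nothing of a change with either protein.

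Of the 3750 consensus sites within 10 kb of a TSS, 15.3% belonged to the class. Of erythroid transcription factor genes (19 symbols, 13 with a consensus site within 10 kb), 5 had 7 sites of the class, 18.9% of the 37 sites near genes of the list, beside 14 both-bound, 10 mutant-only and 4 partially bound wild type sites. Cbfa2t3, a corepressor of the TAL1 complex, had one 64.5 bp upstream of its TSS (wild type 3.77, mutant 7.30) and one 1650.5 bp upstream (3.72 and 5.84), both with neither motif. Gata1 had one 3648.5 bp downstream of its TSS (3.43 and 6.93) with 4 purine matches, overlapping ones in a run of G included. Another lay 1651.5 bp downstream (3.82 and 5.76) with 1 purine and 3 GATA matches. Beside them Gata1 had a both-bound site 47 bp upstream of the TSS (7.43 and 6.79) and another 3581.5 bp upstream (5.06 and 8.22). Tal1, which encodes the bHLH partner of GATA1 in erythroid enhancers, had a site 2570.5 bp upstream (3.82 and 6.18) next to a both-bound one 3001 bp upstream with the opposite balance (5.82 and 4.24). The Tal1 site of the class held a purine and no pyrimidine match, and its both-bound neighbour a pyrimidine and no purine match. Whether reads spill between sites this close was not tested. Lyl1 had a site with 3.55 and 6.37, and Zfpm1, the gene of the GATA1 cofactor FOG1, one with 3.86 and 5.36. The motif sequences of the Gata1 and Tal1 sites of the class were the following, the Gata1 ones in the order above.
Gata1, chrX:7541397-7541425, plus strand: ccctgttctaTGGGGGGGGggtcagtact
Gata1, chrX:7543374-7543402, minus strand: taactgaggtGGGGGGTGGgcccttgatt
Tal1, chr4:114729561-114729589, minus strand: gtctccccggCGGGAGGGGcagcggaggg

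Of the globin, heme and iron uptake list (20 symbols, 12 with a consensus site within 10 kb), 4 of 21 sites (19.0%), at 3 genes, belonged to the class, beside 4 both-bound, 2 mutant-only and 6 partially bound wild type sites. Hbb-bh1, an embryonic beta-like globin gene, had one 92 bp upstream of its TSS (wild type 3.30, mutant 5.96) and one 1614 bp upstream (2.23 and 4.78). No site of another class within 10 kb had Hbb-bh1 as its closest TSS. The promoter site of Hbb-bh1 carried a purine and a pyrimidine match on opposite strands with 41 bases between them, and the capitals of its sequence below mark the pyrimidine match as it reads on the other strand, CCCCACCCC, and then the purine match. Tfrc, the transferrin receptor gene, had a site 31.5 bp downstream of its TSS (3.61 and 4.69) with overlapping matches of both motifs. Fech, which encodes the last enzyme of heme synthesis, had one in an intron (2.08 and 5.09) with neither motif and 1 GATA match.
Hbb-bh1, chr7:110991729-110991797, minus strand: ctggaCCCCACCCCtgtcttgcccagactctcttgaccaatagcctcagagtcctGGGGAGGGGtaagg
Hbb-bh1, chr7:110993283-110993311, minus strand: ttgaggtcccAGGGAGTGGggaggtctgg
Tfrc, chr16:32609014-32609034, plus strand: cggccGGGGGGTGGGGccgag

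Membrane and blood group genes (24 symbols, 14 with a site) had 4 sites of the class (13.8% of 29) at 3 genes. None of these sites held either motif within 50 bp of its midpoint. Sptb, beta-spectrin, had one 680.5 bp downstream of its TSS (3.95 and 6.79). Slc4a1, the anion exchanger band 3, had one 142 bp downstream (3.30 and 6.68) and one 1459 bp downstream (2.61 and 5.83). The words nearest to the motifs at Sptb and at the Slc4a1 promoter are shown because both genes encode main parts of the red cell membrane. Neither site held an exact match within 50 bp of its midpoint. The rest of these sites, which are 866 and 505 bp wide, is not described here.
Sptb, chr12:77810843-77810871, minus strand: agcgccggggAGTGCGGGGcccagggggc
Slc4a1, chr11:102226467-102226495, plus strand: gcaggtgcccTGGGGGAGGctcccaaacc

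The cell cycle list (27 symbols, 11 with a site) had 5 of its 23 sites (21.7%) in the class. E2f3 had a site of the class 1658 bp downstream of its TSS (wild type 2.23, mutant 6.27), between a both-bound site 1161.5 bp downstream (5.27 and 6.06) and a mutant-only site 2247.5 bp downstream (0.91 and 6.12). The 3 E2f3 sites thus had mutant values within 6.06 to 6.27 while the wild type value went from 5.27 to 0.91. These sites also lie close together, and a spill of reads between them was not tested. Ccnd3, the gene of cyclin D3, had 2 sites of the class within 10 kb (3.95 and 5.50, 2.08 and 5.18), E2f8 had one 179.5 bp upstream of its TSS (3.08 and 5.38) and Cdkn2c, the CDK inhibitor p18, one 1118 bp upstream (3.30 and 4.50). Other KLF and SP genes (26 symbols, 13 with a site) had 4 of 22 sites (18.2%) in the class, at Sp9 (2.91 and 5.87), Sp7 (3.61 and 5.07, 2.23 and 4.75) and Klf7 (2.08 and 4.99). TGF-beta pathway genes (32 symbols, 8 with a site) had 3 of 13 sites (23.1%), at Id1 (2.91 and 5.84), Smad6 (3.61 and 5.22) and Acvr2b (2.61 and 4.99). Of the cytokine signalling list (22 symbols, 12 with a site) 1 of 14 sites within 10 kb (7.14%) was of the class, at Stat5a, 139.5 bp upstream of its TSS (3.77 and 4.67). Of the same list, Kit was the closest TSS of 1 site of the class and Pim1 of 3, all farther than 10 kb. With 1 to 7 sites a list, these shares were not tested against the share of all sites near a gene.

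The 5 highest mutant concentrations of the class were at sites of genes with varied roles. Fads2, a fatty acid desaturase gene, had the highest one 259.5 bp upstream of its TSS at chr19:10175918-10176587 (wild type 3.23, mutant 8.26), with a pyrimidine motif only. Cd247, the gene of the T cell receptor zeta chain, followed with an intronic site holding 8 purine matches (3.08 and 8.13). These include overlapping matches within the run of G in its sequence above. The next were an intronic site of Gse1 (3.86 and 8.09), a UTR site of Set, a histone chaperone gene, 87 bp upstream of the listed TSS with neither motif (3.43 and 8.03), and an intronic site of Hdac5, a histone deacetylase gene (2.72 and 8.01). At 4 of these 5 genes the mean nascent level was 7.06 to 10.97 on the log2 CPM scale, and at Cd247 it was 3.02. The site of Cox6b2 had the largest difference of all 818 sites, with a wild type value of 2.08 and a mutant value of 7.78, and its gene had a mean level of only -0.98.

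Most genes had a single site of this kind. The 818 sites had 718 genes as closest TSS, of which 641 had exactly 1 and 16 had 3 or more. Gse1 had 7, all in introns by the annotation and 22011.5 to 152600 bp upstream of the nearest listed TSS, with wild type values of 2.37 to 3.86 and mutant values of 5.23 to 8.09. The same gene was the closest TSS of 17 mutant-only, 7 both-bound and 1 partially bound wild type sites, and its mean nascent level was 10.97. Junb, an AP-1 gene, had 4 within 1401.5 bp of its TSS on both sides, with narrow wild type values of 2.5 to 2.72 and mutant values of 5.57 to 6.98. Bbc3, the gene of the pro-apoptotic protein PUMA, had 4 from 179.5 bp upstream to 3268 bp downstream of its TSS, with wild type values of 2.37 to 3.55 and mutant values of 4.77 to 6.09. Thra, a thyroid hormone receptor gene, had 4 with wild type values of 2.5 to 3.77 and mutant values of 5.21 to 6.70.

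The other genes with several such sites included chromatin, RNA-binding and kinase genes, each with 3. Igf2bp1 and Igf2bp3, genes of related RNA-binding proteins, had all of theirs within 1068.5 and 3280.5 bp of the TSS, with mutant values of 5.44 to 6.20 and 4.77 to 6.63. Kdm6b, a histone H3 lysine demethylase gene, had mutant values of 4.9 to 6.95, and Pim1, a kinase gene, of 4.66 to 5.21 at sites 40093 bp or more upstream of its TSS. Cbfa2t3, Ccnd3, Zfpm1, Sp7, B3gnt7, C77080 and 8430427H17Rik had 3 each as well, and the Sp7 sites were the only consensus sites with Sp7 as closest TSS. The Zfpm1 sites included the one with 18 purine matches, which had a wild type value of 3.23 and a mutant value of only 4.74.

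**Figure D5:**
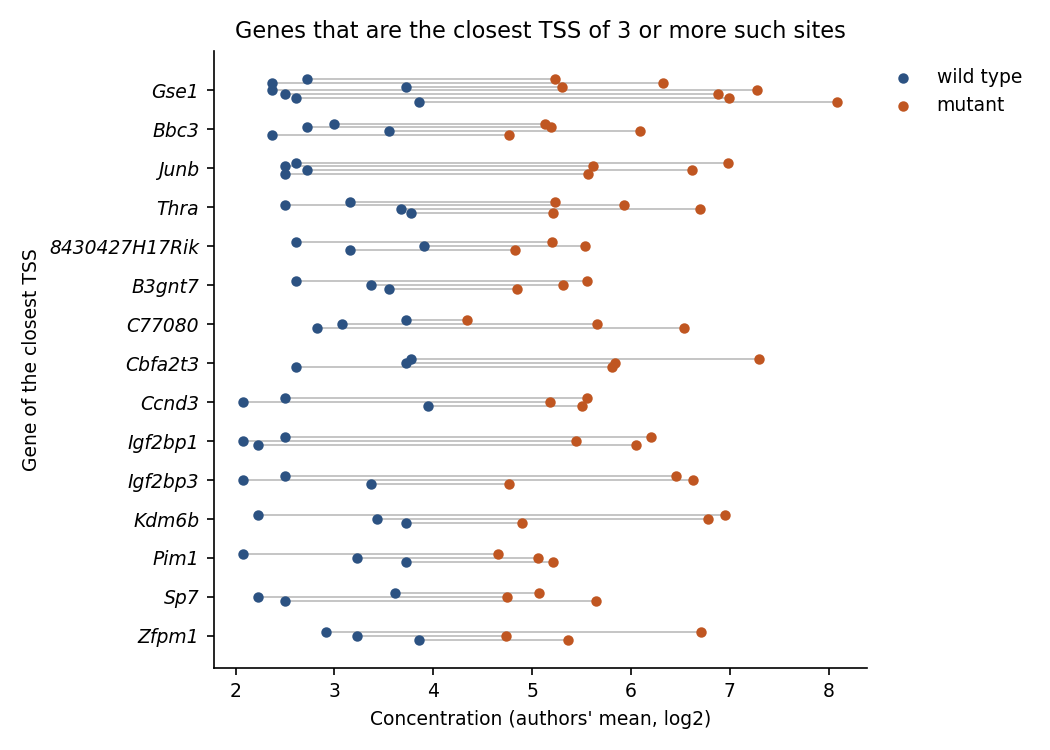
Wild type (blue) and mutant (orange) concentration, as the authors' log2 means (x axis), at each mutant site with weak wild type binding for 15 of the 16 genes that are the closest TSS of 3 or more of them (y axis, in rows ordered by number of sites), with a grey line joining the values of 1 site. At Junb the wild type values are close together, 2.5 to 2.72, and at Gse1 the mutant values spread from 5.23 to 8.09.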

How the data were processed

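Reads of the ChIP and 4sU-RNA libraries were sequenced on the Ion Proton platform and mapped to mm9 by the authors, with TMAP for ChIP and TopHat2 (2.0.10 in the submitters' processing notes) and TMAP for RNA. Duplicate and multi-mapped ChIP reads were removed, sites were called with MACS2 and GEM, and the wild type and mutant concentrations were deposited by the authors as log2 means of normalized reads at 5551 consensus sites from DiffBind. The deposited RNA level of a gene is the authors' mean log2 CPM over the libraries of the limma-voom fit, read from the mutant and the wild type gene table (12034 symbols in either). Removal of multi-mapped reads lowers counts in repeats, and versions of the other tools are not given in the sources used here. The deposited fold changes, t values, p-values and FDR are the authors' own comparisons and were not used.

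Sites were classed by their concentrations. The wild type limits of 2 and 4 and the mutant limit of 4 define the 818 sites. Sequence came from NCBIM37 (mm9) and gene features from GENCODE M1. The deposited distance to the closest TSS, with its sign checked against GENCODE M1, is TSS minus midpoint whatever the strand (3509 sites within 50 bp of a TSS of that gene this way, 17 the other way), and was turned to the gene's direction. Motifs were searched within 50 bp of the midpoint on both strands, and the base of a motif was read from the match nearest the midpoint. A gene was taken as near within 10 kb. Shares were compared with two-sided Fisher's exact tests over the 14 features and 3 other classes, adjusted by Benjamini-Hochberg over 42 tests with a threshold of 0.05 (Python 3.11.15, scipy 1.17.1, pysam 0.24.0). The search and the tests were tested on simulated data. With no per-library values, no replicate spread or depth could be given.

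Named sites were the 5 with the highest mutant concentration, the 5, 5, 3 and 3 highest with both motifs, purine only, pyrimidine only and neither, all list genes within 10 kb, genes with 3 or more such sites, and the 3 sites on each side of each limit, and a few of these are not reported here. The 818 sites, the lists and the tests were chosen with earlier results of these data known. Alternatives were the concentration limits, search width, promoter or other sites only, crowded sites left out, and other TSS, CpG and RNA limits. Runs of 9 guanines and the mutant band from 5 to 6 were added after seeing the data.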

Additional observations from a re-analysis of the deposited data

How the results depend on the processing

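Of 333 alternative odds ratios, 257 kept the direction and the side of the 0.05 threshold of the reported value. Of the alternatives to differences past 0.05, 137 kept both, 29 kept the direction but no longer passed, and none turned. The other classes are mutant-only (M), both-bound (B) and partially bound wild type (W) sites. The 29 values that no longer passed were, for the purine motif, 0.856 (100 bp), 0.908 (whole site), 0.827 (promoters) and 0.747 (mutant 5 to 6) against M and 1.11 (whole site) against B. For the pyrimidine motif they were 1.07 (25 bp), 1.24 (mutant of at least 5), 1.35 (mutant 5 to 6), 1.18 (away from promoters) and 1.32 (wild type 2.5 to 3.5) against M and 0.722 (mutant 5 to 6) against B. For guanine at base 5 they were 0.717 against M and 1.89 against W at promoters and 1.81 against B (mutant of at least 5). For thymine at base 5 against B they were 1.61 (25 bp), 1.33 (mutant of at least 5), 1.06 (away from promoters), 1.49 (wild type 2.5 to 3.5) and 1.55 (no neighbour within 2000 bp). For GATA against W they were 1.44 (away from promoters), 1.10 (promoters) and 1.24 (wild type 2.5 to 3.5). For promoters against M they were 1.23 (mutant of at least 5) and 1.25 (mutant 5 to 6). For CpG-rich windows against W they were 0.619 (away from promoters) and 0.806 (promoters). For the RNA table against W they were 1.37 (away from promoters), 1.76 (wild type 2.5 to 3.5) and 1.39 (no neighbour). The cause was not tested, and several of these alternatives leave fewer sites.

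Another 14 values passed where the reported one did not. They were GATA against M with 1.25 (100 bp), 1.49 (25 bp), 1.40 (mutant of at least 5), 1.57 (away from promoters) and 1.21 (whole site), GATA against B with 0.455 (promoters) and 0.671 (wild type 2.5 to 3.5), thymine at base 5 against M with 0.661 (100 bp) and 0.693 (whole site), and, with the whole site, thymine at base 7 against W with 0.697, ETS against M with 1.57 and both motifs with 1.38 against M, 0.661 against B and 1.54 against W. The 33 values that turned direction all belong to differences that did not pass as reported. For NF-Y they were 0.962 (100 bp), 0.995 and 0.878 (25 bp), 0.939, 0.761 and 0.919 (promoters), 0.903 (whole site), and 0.987 and 0.945 (no neighbour). For the E-box they were 1.02 (100 bp), 1.15, 1.08 and 1.07 (25 bp), 1.06 and 1.03 (mutant of at least 5), 1.07 (away from promoters), 1.08 (promoters) and 1.09 (whole site). For ETS they were 0.924 (mutant of at least 5), 0.474 (away from promoters), 1.19 and 0.956 (promoters) and 1.03 (whole site). For both motifs they were 1.12 and 0.823 (25 bp), 0.932 (mutant of at least 5), and 0.871 and 0.975 (away from promoters). At promoters, 1.24 for CpG-rich windows against B, 0.935 for GATA against M, 1.01 for thymine at base 5 against M, and 1.15 and 1.01 for thymine at base 7 turned as well.

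No paired analysis was possible because the tables hold class means and no value per replicate, and for the same reason no library was left out in turn. The precision of the wild type values is limited by their steps, and the depth is unknown.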

Other observations

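The 818 mutant sites with weak wild type binding were spread over all chromosomes with sites. Chromosome 11 held the most, 88 sites (10.8%), which were 16% of the 549 consensus sites there, and chromosome 17 had the highest part of its own sites in the class, 49 of 269 (18.2%), while chromosome 12 had the lowest, 20 of 176 (11.4%). These parts were not tested against each other.

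Some of the genes within 10 kb of the sites were also near sites of other classes. Of 525 such genes, 131 (25%) were near a mutant-only site, 92 (17.5%) near a both-bound site and 44 (8.38%) near a partially bound wild type site. Taken from the other side, these were 10.3% of the 1267 genes near mutant-only sites, 15.7% of the 585 near both-bound sites and 8.53% of the 516 near partially bound wild type sites. The shares of the 525 genes thus follow the order of these gene numbers. They were not set against the share over all genes near a consensus site.

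Of the genes with 3 or more of the sites, some were named here after their values were seen. Igf2bp1 and Igf2bp3 each had 3 sites, at wild type values of 2.08 to 2.5 and 2.08 to 3.37, and both genes had mean nascent levels above 7 on the log2 CPM scale, at 7.27 and 8.04. B3gnt7, a glycosyltransferase gene, had 3 sites at a mean level of 2.57.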
